A study of Danio rerio with 6 samples.

Results

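DNA methyltransferases and Tet enzymes set and remove the methyl mark on cytosine in DNA, and their transcripts were examined here in zebrafish (Danio rerio) embryos labelled as a Trdmt1 knockout and in control embryos labelled as wild type. The genes were taken by symbol from the deposited table, as every row whose symbol starts with dnmt and a digit or equals tet1, tet2 or tet3. This gave 10 genes of 31624 listed, namely dnmt1, 6 Dnmt3 genes and 3 Tet genes. All 10 passed the filter on low counts, which kept 20555 genes. Whole-embryo RNA was sequenced in 3 libraries of the knockout and 3 of the wild-type control. The labels used here give neither the embryo age nor the kind of allele, and they do not tie the libraries to clutches or animals. The p-values therefore measure only the spread between these samples, which may be technical.

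Dnmt1 copies methylation onto the new strand after DNA replication, with Uhrf1 as the partner that recognises hemimethylated sites. Dnmt3 enzymes place methyl groups on unmethylated DNA. Zebrafish carry several Dnmt3 genes, of which dnmt3aa and dnmt3ab are counterparts of mammalian Dnmt3a, while dnmt3ba and the dnmt3bb genes are counterparts of mammalian Dnmt3b. Tet enzymes are iron- and 2-oxoglutarate-dependent dioxygenases that oxidise methylcytosine, after which base excision repair can restore plain cytosine. Trdmt1, also called Dnmt2, has the fold of the DNA methyltransferases but is known for methylating transfer RNA, so the comparison asks whether transcripts of its DNA-directed relatives differ when it is mutated.

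Reads counted in genes totalled 15191166 to 16085068 in the knockout libraries and 12877132 to 18721589 in the control libraries. Knockouts 1 and 2 nearly agreed, since their chi-square over genes, divided by its degrees of freedom, was 1.58, against 11.7 to 75.6 in all other library pairs, so they may carry less independent information than their number implies. Knockout 3 stood apart: summed photoreceptor markers reached 1242 RPKM there, against 45.01 and 50.7 RPKM in knockouts 1 and 2 and 95.3 to 173 RPKM in the controls. RPKM are reads per kilobase of exonic length, scaled to the library's counted reads. Summed markers of skeletal muscle, neurons, skin, red blood cells and liver were each at least 421.7 RPKM in every library, and these are tissues that whole embryos hold. The transcript of trdmt1 stood at 1.59, 1.40 and 1.07 RPKM in knockouts 1, 2 and 3, against 3.10, 2.60 and 1.08 RPKM in controls 1, 2 and 3. Control 3 lay within the knockout range, so this transcript does not check the labels (edgeR adjusted p = 0.746).

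No DNA methyltransferase or Tet gene differed between knockout and control embryos beyond the spread between libraries. Of the 10 genes, 0 passed the threshold of 0.05 on the Benjamini-Hochberg adjusted p. That p came from the quasi-likelihood test of edgeR over 20555 genes, of which 24, or 0.117%, passed, 0.102% higher and 0.0146% lower in the knockout. At an unadjusted p under 0.05 there were also 0 of the 10, against 7.47% of all tested genes. DESeq2 called 0 of the 10, against 234 of the 20555. The knockout and control ranges of RPKM overlapped in all 10, while they did not overlap in 15.3% of tested genes. With 10 genes, a share of 0 is near these backgrounds. The log2 fold changes ran from -0.29 for dnmt3bb.3 to 0.10 for tet3, with 8 below 0 and a median of -0.14, beside a median of -0.0038 over all tested genes. Of all tested genes, 49.5% were above 0. The 95% intervals of the 10 fold changes, each taken singly, lay between 0.508 times the control level at the lowest, for dnmt3bb.3, and 1.46 times at the highest, for tet1. None of these intervals thus held a 2-fold change, although 2 genes did reach below 0.5 times, to 0.433 times for dnmt3bb.3, when knockouts 1 and 2 were summed to 1 sample. With a trend in exonic length removed, or any library other than knockout 3 left out, 1 or 2 genes did so, and no interval reached above 2 times in any of these settings.

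The maintenance enzyme gene dnmt1 (ENSDARG00000030756) held similar levels in all 6 libraries. It stood at 19.8, 21.3 and 18.6 RPKM in knockouts 1, 2 and 3, against 18.3, 19.6 and 19.9 RPKM in controls 1, 2 and 3. The groups overlapped, and the means of 19.9 ± 1.36 RPKM in the knockout and 19.3 ± 0.838 RPKM in the control (SD, n = 3 each) differed by less than their spread. The log2 fold change was 0.09 ± 0.14 (SE), with a 95% interval of 0.857 to 1.32 times the control level (edgeR adjusted p = 0.909). These levels rested on 1288 to 1849 reads per library. Its partner gene uhrf1 did not hold the same level throughout. It stood at 14.5, 15.1 and 8.87 RPKM in knockouts 1, 2 and 3, against 14.1, 11.96 and 12.9 RPKM in controls 1, 2 and 3 (edgeR adjusted p = 0.987). The ratio of dnmt1 to uhrf1 RPKM was accordingly 2.10 in knockout 3, against 1.36 and 1.41 in knockouts 1 and 2 and 1.30 to 1.64 in the controls. In knockout 3 the summed RPKM of 23 rows for DNA replication and cell division genes was also low, at 659 RPKM, against 1137 and 1142 RPKM in knockouts 1 and 2 and 796 to 1030 RPKM in the controls. Its part in these levels was not tested. In whole embryos, fewer cells of a type and less RNA per cell cannot be told apart.

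**Figure D1:**
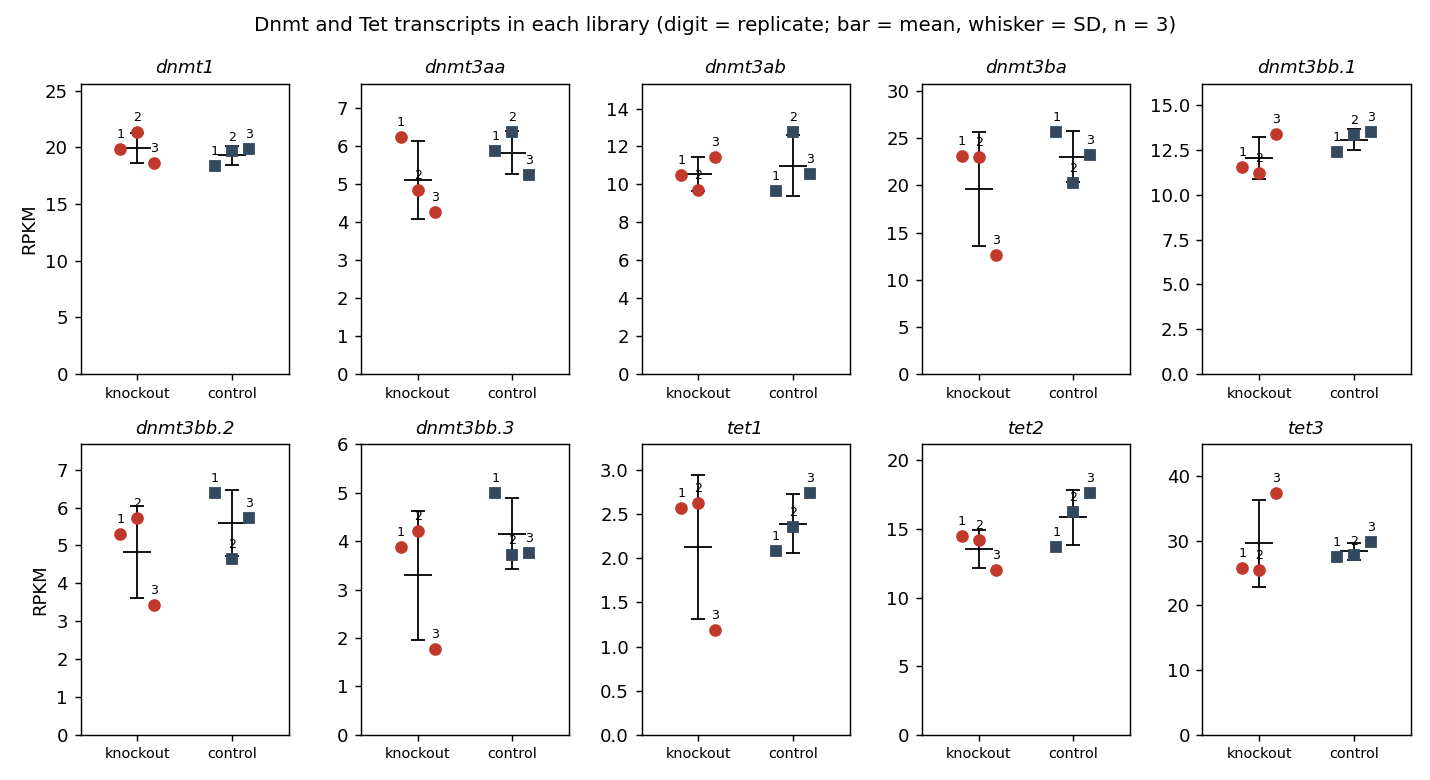
RPKM of the 10 genes in each of the 6 libraries, with knockout libraries as circles and control libraries as squares, the digit giving the replicate, the horizontal bar the mean and the whisker the SD (n = 3). The groups overlap in every panel, and knockout 3 lies below the other 5 libraries for dnmt3ba, dnmt3bb.2, dnmt3bb.3, dnmt3aa, tet1 and tet2 and above them for tet3.

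The counterparts of mammalian Dnmt3a, dnmt3aa and dnmt3ab, differed in level but not detectably between the groups. The gene dnmt3ab (ENSDARG00000015566) stood at 10.50, 9.70 and 11.5 RPKM in knockouts 1, 2 and 3, against 9.64, 12.8 and 10.54 RPKM in controls 1, 2 and 3. All knockout values lay within the control range, and its log2 fold change of -0.02 ± 0.15 (SE) was the smallest of the 10 (edgeR adjusted p = 0.988). Its copy dnmt3aa (ENSDARG00000005394) was lower in every library, at 6.25, 4.84 and 4.26 RPKM in knockouts 1, 2 and 3, against 5.87, 6.37 and 5.24 RPKM in controls 1, 2 and 3. Knockouts 2 and 3 lay below all controls and knockout 1 among them. The log2 fold change of dnmt3aa was -0.15 ± 0.19 (SE), with an interval of 0.672 to 1.21 times the control level (edgeR adjusted p = 0.884). It was -0.32 without knockout 1 and -0.031 without knockout 3.

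Among the counterparts of mammalian Dnmt3b, dnmt3ba (ENSDARG00000052402) had the highest level. It stood at 23.1, 23.0 and 12.6 RPKM in knockouts 1, 2 and 3, against 25.7, 20.3 and 23.2 RPKM in controls 1, 2 and 3. Knockouts 1 and 2 lay within the control range and knockout 3 below it, at 1250 reads with a 95% counting interval of 11.9 to 13.4 RPKM. Such exact Poisson intervals cover counting error only. The log2 fold change over all libraries was -0.20 ± 0.24 (SE) (edgeR adjusted p = 0.874), and without knockout 3 it was 0.04.

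The 3 dnmt3bb genes are neighbours in RefSeq's annotation of the GRCz12tu assembly, which is not the build of the files. Reads of such tandem copies can be split between them in counting, so their single values are uncertain. The gene dnmt3bb.1 (ENSDARG00000036791), known in zebrafish from blood stem cells, stood at 11.5, 11.2 and 13.4 RPKM in knockouts 1, 2 and 3, against 12.4, 13.4 and 13.5 RPKM in controls 1, 2 and 3. Knockouts 1 and 2 were the lowest of the 6 libraries and knockout 3 was among the controls, with a log2 fold change of -0.08 ± 0.14 (SE) (edgeR adjusted p = 0.921). The deposited annotation ties dnmt3bb.2 (ENSDARG00000057830), like dnmt1, to retina layer formation and exocrine pancreas development. Levels of dnmt3bb.2 stood at 5.31, 5.72 and 3.44 RPKM in knockouts 1, 2 and 3, against 6.39, 4.65 and 5.72 RPKM in controls 1, 2 and 3. The gene dnmt3bb.3 (ENSDARG00000057863) stood at 3.89, 4.22 and 1.77 RPKM in knockouts 1, 2 and 3, against 5.0, 3.71 and 3.75 RPKM in controls 1, 2 and 3. Both were low in knockout 3, and knockouts 1 and 2 lay within the control range. Their log2 fold changes were -0.17 ± 0.22 for dnmt3bb.2 and -0.29 ± 0.30 for dnmt3bb.3 (SE; edgeR adjusted p = 0.884 and 0.851). The copies thus did not move alike in knockout 3, where dnmt3bb.1 kept the level of the other libraries and its neighbours did not.

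The Tet genes went in opposite directions in knockout 3. The gene tet3 (ENSDARG00000062646) had the highest RPKM of all 10 genes in every library. It stood at 25.9, 25.5 and 37.4 RPKM in knockouts 1, 2 and 3, against 27.5, 27.7 and 29.8 RPKM in controls 1, 2 and 3. Knockouts 1 and 2 were below all controls and knockout 3 above all of them. The knockout mean was 29.6 ± 6.79 RPKM and the control mean 28.4 ± 1.28 RPKM (SD, n = 3 each), with a log2 fold change of 0.10 ± 0.18 (SE) (edgeR adjusted p = 0.923).

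The gene tet2 (ENSDARG00000076928) stood at 14.5, 14.2 and 11.99 RPKM in knockouts 1, 2 and 3, against 13.7, 16.2 and 17.6 RPKM in controls 1, 2 and 3. Knockout 3 was the lowest library, and knockouts 1 and 2 overlapped the controls. Its log2 fold change of -0.19 ± 0.16 (SE) had the smallest p of the 10 (edgeR adjusted p = 0.826), and was -0.077 without control 3. In zebrafish, tet2 and tet3 are known to act in the formation of blood stem cells, and both carry a blood formation term in the deposited table. The gene tet1 (ENSDARG00000075230) had the lowest level of the 10 genes in every library, at 2.57, 2.63 and 1.19 RPKM in knockouts 1, 2 and 3, against 2.08, 2.35 and 2.74 RPKM in controls 1, 2 and 3. Knockout 3 was far below the rest, on 113 reads with a counting interval of 0.984 to 1.43 RPKM. For tet1 the log2 fold change was -0.12 ± 0.30 (SE) over all libraries (edgeR adjusted p = 0.950), and 0.17 without knockout 3.

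**Figure D2:**
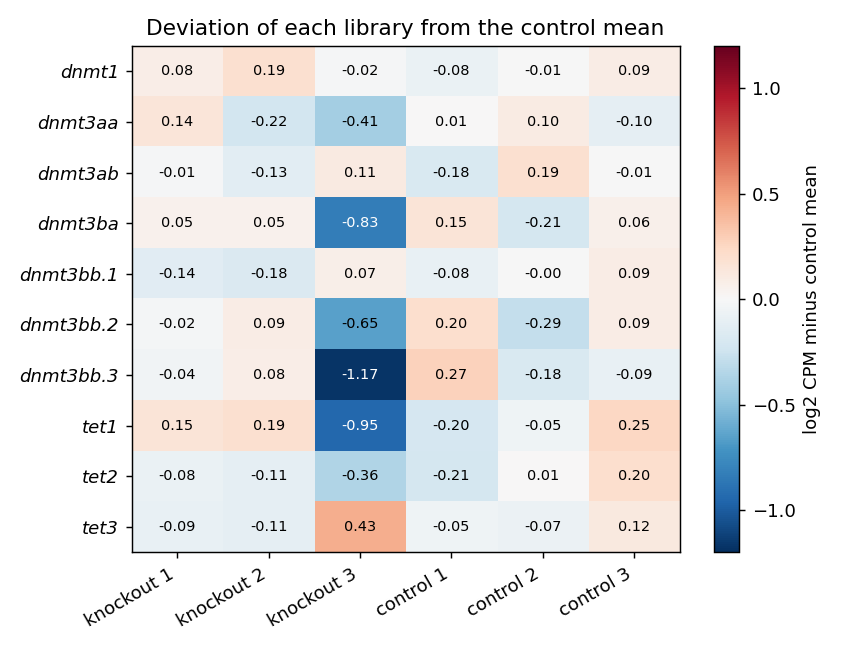
Log2 CPM (counts scaled to library size) of each gene and library minus the mean of the 3 controls, in columns from knockout 1 to control 3, blue for lower and red for higher. The strongest colours stand in knockout 3, from -1.17 for dnmt3bb.3 to 0.43 for tet3, while knockouts 1 and 2 stay between -0.22 and 0.19.

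Knockout 3 lay outside the range of the other 5 libraries in 7 of the 10 genes, below it in 6 and above it in tet3. Over all tested genes it lay outside in 61.6%, below in 33.0% and above in 28.6%. The combined share among the DNA methyltransferase and Tet genes is thus near the background of that library. Taken by direction, 6 of 10 below is more than that background, a difference that was not tested. Relative to the mean of the other 5 libraries, its log2 CPM differed by -1.18 for dnmt3bb.3, -1.01 for tet1, -0.85 for dnmt3ba and -0.66 for dnmt3bb.2. The difference was 0.48 for tet3 and stayed between -0.07 and 0.13 for dnmt1, dnmt3bb.1 and dnmt3ab. In absolute size, the difference of dnmt3bb.3 exceeded that of 91.9% of tested genes and the difference of dnmt1 that of 9.88%. Summed markers of several tissues were also at their highest or lowest in knockout 3. Exocrine pancreas markers summed to 184 RPKM in knockout 3, against 15.1 and 12.3 RPKM in knockouts 1 and 2 and 10.6 to 25.5 RPKM in the controls, with 5 of 13 matched rows tested. Hatching gland markers, with 5 of 6 matched rows tested, summed to 180 RPKM in knockout 3, against 332 and 347 RPKM in knockouts 1 and 2 and 206 to 347 RPKM in the controls. Most of this sum in knockout 3 came from cd63, which was highest there, at 161.87 RPKM against 95.93 to 131.55 RPKM in the others. All other tested rows of this list were lowest in knockout 3. Over the tested hatching gland genes, the median log2 CPM relative to the control mean was -2.71 in knockout 3. Red blood cell markers summed to 2934 RPKM in knockout 3, against 5195 and 5084 RPKM in knockouts 1 and 2 and 3804 to 4075 RPKM in the controls, with 7 of 7 matched rows tested. The gene hbae3 held most of this sum, at 2368 RPKM in knockout 3 and 3252 to 4395 RPKM in the others. By contrast, hbbe2 was highest in knockout 3, at 477 RPKM against 267 to 423 RPKM in the others. Liver markers, with 10 of 12 matched rows tested, summed to 3531 RPKM in knockout 3, against 4514 and 4644 RPKM in knockouts 1 and 2 and 4709 to 6352 RPKM in the controls. The gene apoa2 held most of this sum, at 2544 RPKM in knockout 3 and 3247 to 4958 RPKM in the others. Not all rows were low, since fabp10a, cp and ttr were highest in knockout 3, at 45.6, 53.0 and 2.03 RPKM. Over the tested liver genes, the median log2 CPM relative to the control mean was -0.55 in knockout 3. Macrophage and neutrophil markers summed to 77.9 RPKM in knockout 3, against 164 and 159.6 RPKM in knockouts 1 and 2 and 126 to 174 RPKM in the controls. The gene lyz held the largest part of this sum, at 31.0 RPKM in knockout 3 and 96.1 to 139.6 RPKM in the others. Over the list's tested genes, the median log2 CPM relative to the control mean was not low in knockout 3, at 0.27. This median was 0.27 and 0.04 in knockouts 1 and 2, and -0.18 to 0.23 in the controls. Of the 10 tested rows of that list 1 passed, beside 0.117% of all tested genes, and 7 were positive and 3 negative. The row that passed was the macrophage receptor gene marco, named after its values were seen. It stood at 6.88, 5.82 and 5.44 RPKM in knockouts 1, 2 and 3, against 2.32, 1.54 and 1.62 RPKM in controls 1, 2 and 3 (edgeR adjusted p = 0.0491). Without control 2 this call was lost, since 0 of all tested genes passed in edgeR. Other macrophage genes did not all follow, with log2 fold changes of 1.82 for mpeg1.2, 0.08 for mpeg1.1, -0.16 for csf1ra and -0.37 for mfap4. Summed neuron markers, with 10 of 10 rows tested, were highest in knockout 3, at 635 RPKM, against 428 and 434 RPKM in knockouts 1 and 2 and 422 to 541 RPKM in the controls. The gene elavl3 was lowest there, at 70.6 RPKM against 88.6 to 114.6 RPKM in the others, and all other rows of this list were highest there. Of the 19 photoreceptor rows 16 were tested, and no row of these 7 lists was at 0 in all libraries. Their part in the levels of the DNA methyltransferase and Tet genes was not tested.

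The order of levels per exonic length was much the same in all libraries. From high to low over the mean of 6 libraries it ran tet3, dnmt3ba, dnmt1, tet2, dnmt3bb.1, dnmt3ab, dnmt3aa, dnmt3bb.2, dnmt3bb.3 and tet1, from 29.0 RPKM for tet3 to 2.26 RPKM for tet1. The level of tet3 was above that of 89.4% of tested genes, and that of tet1 above 26.5%. Between neighbours, the ranges over the 6 libraries were separate only for dnmt1 above tet2 and dnmt3ab above dnmt3aa. The genes dnmt3aa and dnmt3bb.2 were in that order in 3 of 6 libraries, so they cannot be ranked. The pairs dnmt3ba above dnmt1 and tet2 above dnmt3bb.1 held in 5 of 6 libraries, with knockout 3 the exception in both. There dnmt3ba came behind tet3, dnmt1 and dnmt3bb.1. The remaining neighbours kept their order in 6 of 6 libraries although their ranges overlapped. These ranks rest on the deposited exonic lengths, from 3186 bases for dnmt3aa to 8807 bases for tet2. By reads, dnmt3ba stood above tet3 in every library but knockout 3, with 3127 against 1814 reads in control 1.

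Sums over the families show how the levels are shared out. The 6 Dnmt3 genes together stood at 60.6, 58.7 and 47.0 RPKM in knockouts 1, 2 and 3, against 64.9, 61.1 and 62.0 RPKM in controls 1, 2 and 3. All 3 knockout sums lay below all control sums, by little in knockouts 1 and 2. RPKM leave out the TMM factors that scaled the counts for the test. These were 0.986 and 0.984 in knockouts 1 and 2, against 1.02, 1.04 and 0.984 in controls 1, 2 and 3. The order of knockouts 1 and 2 against the controls thus depends on the scaling, and it was not tested. The Dnmt3a pair summed to 16.8, 14.5 and 15.7 RPKM in knockouts 1, 2 and 3, against 15.5, 19.1 and 15.8 RPKM in controls 1, 2 and 3. The share of dnmt3ba in the Dnmt3 sum was 26.9% in knockout 3, against 38.1% and 39.2% in knockouts 1 and 2 and 33.2% to 39.5% in the controls. The dnmt3bb cluster, taken as a sum, made up 34.2%, 36.0% and 39.6% in knockouts 1, 2 and 3, against 36.6%, 35.5% and 37.1% in controls 1, 2 and 3. Reads split among its copies can shift this sum, since exonic lengths run from 3678 bases for dnmt3bb.1 to 5698 for dnmt3bb.2. As a level the cluster summed to 20.7, 21.2 and 18.6 RPKM in knockouts 1, 2 and 3, against 23.8, 21.7 and 23.0 RPKM in controls 1, 2 and 3, so that its share was highest and its level lowest in knockout 3.

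The 3 Tet genes summed to 43.0, 42.3 and 50.6 RPKM in knockouts 1, 2 and 3, against 43.3, 46.3 and 50.2 RPKM in controls 1, 2 and 3, which overlap. Within this sum tet3 took 74.0% in knockout 3, against 60.2% in each of knockouts 1 and 2 and 59.4% to 63.6% in the controls. The share of tet1 was 2.35% in knockout 3, against 5.98% and 6.21% in knockouts 1 and 2 and 4.81% to 5.46% in the controls. The ratio of tet3 to dnmt3ba RPKM, which does not depend on library scaling, was 2.96 in knockout 3, against 1.12 and 1.11 in knockouts 1 and 2 and 1.07 to 1.37 in the controls.

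**Figure D3:**
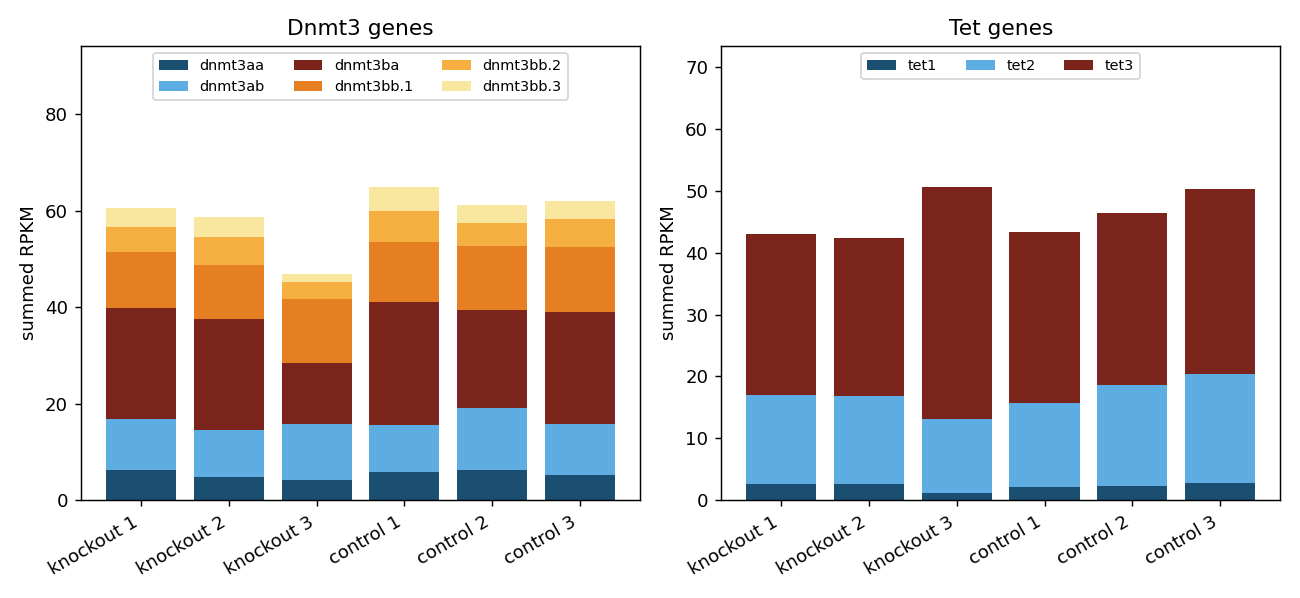
Summed RPKM per library of the 6 Dnmt3 genes (left) and the 3 Tet genes (right), stacked by gene, with the knockout libraries to the left of the control libraries. The dnmt3ba block is smallest in knockout 3, at 12.6 RPKM, and the tet3 block is largest there, at 37.4 RPKM.

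Leaving out knockout 3 moved several fold changes across 0 without any passing the test. Over the remaining 5 libraries the 10 log2 fold changes lay between -0.16 for dnmt3bb.1 and 0.17 for tet1, with 5 above 0 and 5 below. The 95% intervals then lay between 0.738 and 1.47 times the control level, and the smallest edgeR adjusted p was 0.663. In the same setting 206 of 20910 tested genes passed, and none of the 10 was among them. For dnmt3bb.3 the log2 fold change was 0.0081 without knockout 3, and for tet3 it was -0.10. The values of dnmt3bb.2 and dnmt3bb.3 also came nearer to 0 without control 1, at -0.065 and -0.13, and that of tet1 was 0.010 without control 3.

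**Figure D4:**
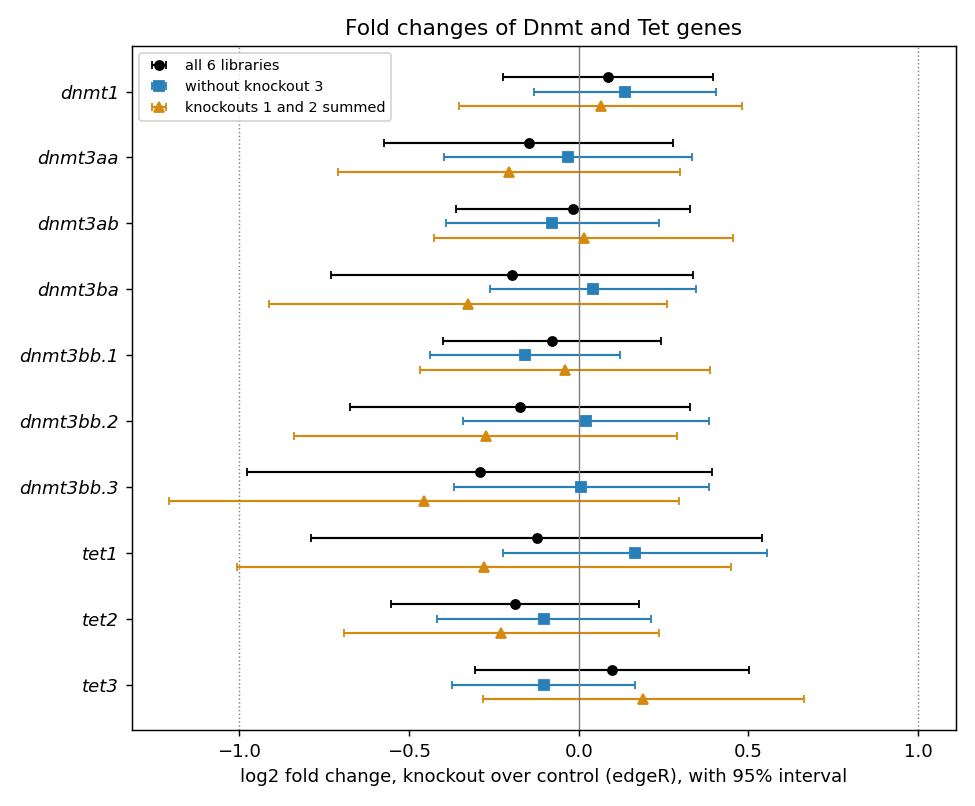
Log2 fold change of knockout over control for each gene with its 95% interval, from edgeR, over all 6 libraries (circles), without knockout 3 (squares) and with knockouts 1 and 2 summed (triangles). Every interval holds 0, and the dotted lines at -1 and 1 mark 2-fold changes, which only intervals of the summed setting cross, for dnmt3bb.3 and tet1.

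Genes related to these enzymes, not all of them partners, were taken as 8 lists of 130 rows, of which 124 were tested and 0 passed. At an unadjusted p under 0.05 there were 16, or 12.9%, against 7.47% of all tested genes. DESeq2 called 3 of the 124, against 234 of all 20555 tested genes. The knockout and control ranges did not overlap in 22, or 17.7%, near the 15.3% over all tested genes. The lists' median log2 fold changes ran from -0.23 for germline genes to 0.10 for the methionine and folate cycle. Over all tested genes 49.5% of fold changes were positive, which is the background for the signs given below.

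The range of log2 fold changes was narrower in maintenance partners than in the other 7 lists, which all had more tested genes. The 6 tested maintenance partners, with 3 positive and 3 negative, lay between -0.10 and 0.18. Their smallest p-values belonged to cdca7b, a partner of the remodeller Hells, at 15.6, 16.5 and 8.64 RPKM in the knockouts and 12.8, 10.8 and 13.4 RPKM in the controls, and to dmap1, a Dnmt1-associated protein gene, with a log2 fold change of -0.10 (edgeR adjusted p = 0.892 and 0.900). Like uhrf1, cdca7b was lowest in knockout 3.

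Of the 10 tested readers of methylated DNA, 6 were positive and 4 negative, with a median of 0.07. The methyl-binding repressor gene mbd2 stood at 5.02, 5.4 and 4.22 RPKM in the knockouts, against 5.27, 2.59 and 2.79 RPKM in the controls, where control 1 lay within the knockout range (edgeR adjusted p = 0.767). The zinc finger reader gene zbtb38 stayed under 1 RPKM in every library.

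The largest positive fold changes of the 8 lists were in gadd45bb and gadd45ba. Gadd45 genes are stress-induced genes whose products have been linked to DNA demethylation by repair. The gene gadd45ba stood at 39.7, 39.6 and 40.4 RPKM in knockouts 1, 2 and 3, against 21.97, 10.9 and 11.4 RPKM in controls 1, 2 and 3. The gene gadd45bb stood at 12.2, 13.4 and 15.2 RPKM in the knockouts, against 6.66, 3.38 and 2.41 RPKM in the controls. In both, all knockouts lay above all controls, and knockout 3 did not stand apart. Their log2 fold changes of 1.47 ± 0.26 and 1.74 ± 0.33 (SE) did not pass in edgeR (adjusted p = 0.0929 and 0.124), while DESeq2 called both (adjusted p = 2.58e-05 and 7.51e-05). Over the alternatives the adjusted p of gadd45ba ranged from 2.58e-05 to 0.521, and it passed in edgeR without control 1 (adjusted p = 0.0342). Other Gadd45 genes moved less, with log2 fold changes of 0.46 for gadd45ab, 0.41 for gadd45aa, 0.11 for gadd45ga and -0.0064 for gadd45gb.1. The excision repair list, which holds these Gadd45 genes as well as repair genes, had 16 tested genes. Their median was 0.02, with 9 positive and 7 negative. Of the repair genes, xrcc1, neil3, parp1 and lig3 were positive, and polb, tdg.1, tdg.2, neil1, smug1 and apex1 negative.

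In the methionine and folate cycle, which supplies the methyl donor, 12 of 21 tested genes were positive and 9 negative. The S-adenosylmethionine synthetase gene mat2al stood at 9.47, 9.13 and 11.5 RPKM in the knockouts, against 5.58, 5.61 and 7.49 RPKM in the controls (edgeR adjusted p = 0.346). The glycine methyltransferase gene gnmt, whose product uses up the methyl donor, stood at 36.5, 37.0 and 37.5 RPKM in the knockouts, against 46.0, 53.3 and 51.4 RPKM in the controls (edgeR adjusted p = 0.520). Neither pair of ranges overlapped, and neither gene passed. Other synthetase genes did not all follow mat2al. The gene mat1a had a mean of 93.7 RPKM in the knockout and 136 RPKM in the control, and mat2aa 57.2 and 72.1 RPKM. Both were lower in the knockout without overlap of ranges, with log2 fold changes of -0.50 and -0.30 (edgeR adjusted p = 0.632 and 0.733). That of mat2ab was 0.17, with overlap. Of the 9 tested genes listed under 2-oxoglutarate supply, 5 were positive. Only the isocitrate dehydrogenase genes among them make 2-oxoglutarate. Of those, idh3b was positive at 0.07, and idh1, idh3a and idh3g were negative, at -0.14, -0.27 and -0.09. The list also holds ogdha and ogdhb, whose enzyme uses up 2-oxoglutarate, and fh. It further holds succinate dehydrogenase genes, whose enzyme neither supplies nor uses 2-oxoglutarate. Of these, sdha stood at 60.0, 58.5 and 79.3 RPKM in the knockouts and 47.0, 45.3 and 46.9 RPKM in the controls (edgeR adjusted p = 0.419). The iron-sulfur subunit gene sdhb of the same enzyme had a log2 fold change of 0.36 (edgeR adjusted p = 0.715).

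**Figure D5:**
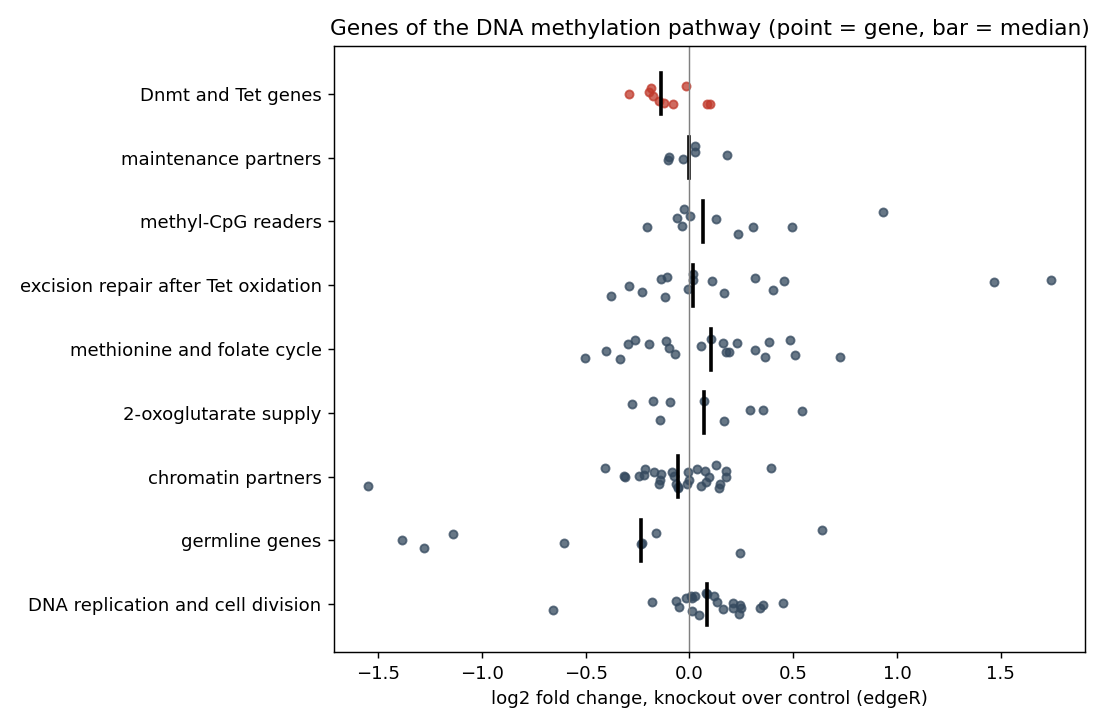
Log2 fold change of knockout over control (edgeR) for the 10 DNA methyltransferase and Tet genes and for the tested genes of 8 related lists, 1 point per gene, with the median as a bar. The DNA methyltransferase and Tet genes lie between -0.29 and 0.10, and the points farthest to the right are gadd45bb at 1.74 and gadd45ba at 1.47.

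Of 30 tested chromatin partners 11 were positive and 19 negative, with a median of -0.06. The symbol kdm2bb, for a CXXC-domain demethylase, stands on 2 rows. The row ENSDARG00000100575 stood at 0.41, 0.44 and 0.98 RPKM in the knockouts, against 1.67, 1.97 and 1.87 RPKM in the controls (edgeR adjusted p = 0.332, and 0.0373 without knockout 3). The row ENSDARG00000046010 stood at 0.69, 0.73 and 1.34 RPKM in the knockouts and 0.66, 1.00 and 0.98 RPKM in the controls. Reads can be split between such rows, so the value of either is uncertain. The heterochromatin protein gene cbx1b had a log2 fold change of -0.41 (edgeR adjusted p = 0.612).

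Germline genes include several that DNA methylation keeps silent in the body cells of mice. Of 15 matched rows 9 were tested, 2 positive and 7 negative, with a median of -0.23. The RNA helicase gene ddx43 stood at 2.24, 2.07 and 1.28 RPKM in the knockouts, against 5.44, 4.36 and 4.15 RPKM in the controls (edgeR adjusted p = 0.161). It did not pass in edgeR over all libraries, but did without knockout 3 (adjusted p = 0.0430) and in DESeq2 (adjusted p = 0.00245), within a range of 0.00245 to 0.592 over the alternatives. The germ cell helicase gene ddx4, or vasa, was under 1 RPKM in every library, with a log2 fold change of -1.38 (edgeR adjusted p = 0.334).

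Of 23 tested rows for DNA replication and cell division, 18 were positive and 5 negative, with a median of 0.08. The positive share was 78.3%, against 49.5% over all tested genes. The list's median log2 CPM relative to the controls was 0.34, 0.26 and -0.35 in knockouts 1, 2 and 3, and -0.19 to 0.16 in the controls, so the knockouts went apart. The ribonucleotide reductase symbol rrm2 stands on 2 rows with different patterns. The row ENSDARG00000078069 stood at 33.6, 33.1 and 22.8 RPKM in the knockouts, against 51.5, 41.6 and 51.5 RPKM in the controls (edgeR adjusted p = 0.408). The row ENSDARG00000020711 stood at 80.7, 83.3 and 15.5 RPKM in the knockouts and 38.5, 49.4 and 47.2 RPKM in the controls. The chromatin assembly gene chaf1a had a log2 fold change of 0.34 (edgeR adjusted p = 0.646).

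The genes whose profiles over the 6 libraries lay closest to the leading gene of each family were found by the root mean square difference of centred log2 CPM, among 13905 genes. For dnmt1 they were mcm4, a subunit gene of the replicative helicase, the splicing factor gene slu7 and the acyl-CoA dehydrogenase gene acadl, at 0.031, 0.032 and 0.032, against a median of 0.246 over the genes searched. For dnmt3ba they were mapk11, a p38 kinase gene, the RNA-binding protein gene tia1 and the biliverdin reductase gene blvra, at 0.031, 0.036 and 0.040. For tet3 they were arhgdia, the zinc finger gene znf710b and the actin-binding protein gene cotl1, at 0.022, 0.027 and 0.035. Chosen by profile over these libraries, the genes named for dnmt1 had to share its similar levels in all 6 libraries. The 6 genes named for dnmt3ba and tet3, chosen in the same way, had to share their low or high level in knockout 3. For example, tia1 stood at 57.2, 58.4 and 33.7 RPKM in knockouts 1, 2 and 3, against 65.5, 51.2 and 61.0 RPKM in controls 1, 2 and 3. Likewise cotl1 stood at 210 RPKM and 209 RPKM in knockouts 1 and 2 and 291 RPKM in knockout 3, against 216 to 231 RPKM in the controls.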

How the data were processed

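Counts and RPKM per Ensembl gene were deposited by the authors in a single table. The counts are whole numbers taken as raw reads. The deposited RPKM values, per the file headers, can be recomputed from the counts, the exonic length and the library total, within 0.0051. Per the submitters' processing notes, Trimmomatic 0.30, HISAT2 2.0.1, HTSeq 0.6.1, DESeq and genome build Zv9 were used, in no stated order; whether strand was used in counting is not stated there, so antisense partners cannot be told apart. A further 6 columns of per-sample values match no sample here and were not used.

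Counts were filtered by filterByExpr, scaled by TMM and tested with edgeR 4.0.16 (R 4.3.3) by its quasi-likelihood test with robust estimation, without covariates, with Benjamini-Hochberg adjustment and a threshold of 0.05. SEs derive from the F statistic, and log2 CPM used a prior count of 2. DESeq2 1.42.0 was an alternative. The procedure was tested on simulated data. Genes named were those matching the symbol rule, trdmt1, uhrf1, and per pathway list the 2 with the smallest p and any called. Per family the 3 most similar profiles with a proper symbol and at least 1 RPKM were also named. Some second rows of a symbol and some further genes of the lists were named after their values were seen. Genes and lists were chosen with earlier results of these data known.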

Additional observations from a re-analysis of the deposited data

How the results depend on the processing

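No DNA methyltransferase or Tet gene passed in any of the 13 alternatives. The count over all genes, 24 in the main test, was 53 without a filter and 234 with DESeq2, and ran from 0 to 206 with 1 library left out, 0 without control 2 (956 genes at an unadjusted p under 0.05), 4 without control 3, 8 without control 1 and 206 without knockout 3. The pathway count of 0 was 3 with DESeq2 (gadd45ba, gadd45bb and ddx43) and 0 to 3 with 1 library left out, with 3 without knockout 3 (kdm2bb, ddx43 and the rrm2 row ENSDARG00000020711) and 1 without control 1 (gadd45ba).

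The replicate numbers are shared between the groups, and the labels do not say whether they pair the samples. Deviations of same-numbered libraries from their group means correlated at -0.000145, -0.0587 and -0.0348. With 3 libraries per group, and knockouts 1 and 2 nearly alike, these values cannot decide whether the samples are paired. With the replicate number as a block 18 genes passed, none of them a DNA methyltransferase or Tet gene, and uhrf1 changed sign to -0.0084. With knockouts 1 and 2 summed, dnmt3ab changed sign to 0.015 and uhrf1 to -0.087.

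With 1 library left out, the log2 fold change ranged from 0.033 to 0.14 for dnmt1, -0.32 to -0.031 for dnmt3aa, -0.16 to -0.032 for dnmt3bb.1, -0.28 to -0.077 for tet2, -0.10 to 0.19 for tet3, -0.33 to 0.041 for dnmt3ba, -0.097 to 0.096 for dnmt3ab, -0.32 to 0.021 for dnmt3bb.2, -0.51 to 0.0081 for dnmt3bb.3, -0.31 to 0.17 for tet1 and -0.11 to 0.23 for uhrf1. It ranged from -0.30 to 0.075 for mapk11, -0.35 to 0.0043 for tia1, -0.32 to 0.095 for blvra, -0.081 to 0.20 for arhgdia, -0.078 to 0.23 for znf710b and -0.054 to 0.20 for cotl1. The cause was not tested. At a mean of at least 2 RPKM, kdm2bb and other low genes were not tested. Among the 10 genes depth limits tet1 most, where 113 reads give a counting error of 9.41%.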
